A study of Homo sapiens with 4 samples.

Results

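The genes described here are the numbered zinc finger genes of human chromosome 19, followed through a chromatin accessibility experiment in A375, an established human melanoma cell line. Members are the RefSeq protein-coding genes of GRCh38.p14 on chromosome 19 whose symbol is ZNF followed by a number and at most 1 letter. The rule gave 246 genes, 17.0% of the 1451 protein-coding genes of the chromosome. A region of open chromatin belonged to a member where it overlapped the gene's span extended by 2 kb on both sides, which gave 320 of the 125986 regions of the authors' deposited table and left 1834 other regions on chromosome 19. The assay was ATAC-seq, in which a transposase inserts sequencing adapters into accessible DNA. One group of cultures was kept for 48 h with octanoate, a fatty acid of medium chain length, at 1 mM, and the other with isopropanol, its vehicle, for the same time. Each group had 2 libraries, 4 in all. The labels do not say that libraries came from separate cultures, so p-values measure only the spread between these libraries, which may be technical.

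Zinc finger proteins of this family read DNA through arrays of small zinc-binding domains, and most of those encoded on chromosome 19 also carry a KRAB domain. KRAB recruits the corepressor TRIM28, which brings the histone methyltransferase SETDB1 and heterochromatin proteins to the bound site. Many such proteins are known for silencing transposable elements, and their genes lie in large groups of neighbouring copies that arose by tandem duplication. Because copies resemble each other, short reads can be hard to place between them, and how the authors treated reads with several matches is not given in the sources used here.

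Values are those of 1 table, so each region has a mean signal (normalized reads averaged over the 4 libraries), a log2 fold change of octanoate over vehicle, its standard error (SE) and p-values from DESeq2, but no value for a single library. The depth of each library is unknown here. The authors' adjustment for multiple testing covered 11185 regions, none with a mean under 63.8, and these are called tested. The median log2 fold change was above 0 in the table as a whole, at 0.19 over tested and 0.23 over all nuclear regions, of which 72.1% lay above 0. Of the 7 melanocytic marker genes, SOX10, MITF, PMEL and DCT had a listed region at their start and MLANA, TYR and TYRP1 had none. Of 7 markers of leukocytes, epithelium and endothelium, CD3E alone had one.

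Open chromatin at these genes was concentrated at their starts. RefSeq start windows, running from 250 bases before to 50 after a transcription start, were matched for 216 members, and 207 of them (95.8%) had a listed region within 1 kb of a start, against 593 of 969 other chromosome 19 genes with windows (61.2%). Away from any start, 2 of the 216 members (0.926%) had a region within 1 kb of their 3′ end, against 86 of the 969 others (8.88%). That end holds the exon that encodes the zinc fingers, and is known in many cell types to carry repressive histone methylation. For the 30 members without a window, strand was not known and both gene ends counted as starts. In this way 235 of the 320 member regions were start regions and 85 were not. Of all members, 172 had 1 region, 52 had 2, 14 had 3 or more and 8 had none. The 8 were ZNF154, whose promoter is known to be methylated in many tumours, ZNF177, ZNF382, ZNF404, ZNF439, ZNF541, ZNF587B and ZNF667. Of the regions, 27 overlapped more than 1 member. Exons and introns were not analysed here.

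The sequences below, from RefSeq (GRCh38.p14), are the 250 bases before the start of 6 members. They contrast 3 members whose start regions had high fold changes (ZNF492, ZNF257 and ZNF91) with 3 whose start regions had low ones (ZNF564, ZNF181 and ZNF575), and were chosen after their values were seen. More extreme starts were passed over. ZNF845 (log2 0.69), ZNF582 (0.69) and ZNF506 (0.63), among others, were above ZNF91 (0.56), and ZNF101 (0.053) was below ZNF575 (0.13). ZNF101 lies in the same group of neighbours as the 3 high members. Each is written 5′ to 3′ on the gene's strand. Capitals mark matches on either strand to searched strings. One is CCGGAA, the core read by ETS factors, which reads TTCCGG when it lies on the opposite strand of the gene. Another is CCAAT, the box read by the factor NF-Y. The last of those found here is GGGCGG, read by SP factors. The cyclic AMP response element TGACGTCA, the core promoter string TATAAA and single consensus strings of NRF1, YY1 and ZNF143 were also searched on both strands, and no searched string contains another on either strand.
ZNF492 (chr19:22634074-22634323, plus strand): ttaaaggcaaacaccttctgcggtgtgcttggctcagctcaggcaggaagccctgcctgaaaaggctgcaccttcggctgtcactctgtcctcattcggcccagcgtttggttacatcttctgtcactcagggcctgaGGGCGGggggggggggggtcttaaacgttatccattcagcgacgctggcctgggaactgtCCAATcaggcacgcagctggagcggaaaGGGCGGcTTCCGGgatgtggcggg
ZNF257 (chr19:22052234-22052483, plus strand): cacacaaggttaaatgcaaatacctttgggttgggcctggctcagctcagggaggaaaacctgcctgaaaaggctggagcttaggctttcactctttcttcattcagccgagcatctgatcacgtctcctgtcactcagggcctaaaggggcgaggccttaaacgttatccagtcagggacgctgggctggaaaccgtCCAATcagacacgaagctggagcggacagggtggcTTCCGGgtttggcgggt
ZNF91 (chr19:23395472-23395721, minus strand): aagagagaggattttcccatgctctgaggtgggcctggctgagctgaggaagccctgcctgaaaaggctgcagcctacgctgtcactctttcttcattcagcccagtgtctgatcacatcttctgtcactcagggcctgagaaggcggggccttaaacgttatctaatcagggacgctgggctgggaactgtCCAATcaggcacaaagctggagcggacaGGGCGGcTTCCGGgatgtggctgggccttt
ZNF564 (chr19:12551483-12551732, minus strand): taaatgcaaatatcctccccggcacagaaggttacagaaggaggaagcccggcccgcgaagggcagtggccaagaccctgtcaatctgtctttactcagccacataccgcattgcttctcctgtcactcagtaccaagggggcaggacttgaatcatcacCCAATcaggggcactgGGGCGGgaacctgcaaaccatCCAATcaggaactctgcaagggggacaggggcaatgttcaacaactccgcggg
ZNF181 (chr19:34733993-34734242, plus strand): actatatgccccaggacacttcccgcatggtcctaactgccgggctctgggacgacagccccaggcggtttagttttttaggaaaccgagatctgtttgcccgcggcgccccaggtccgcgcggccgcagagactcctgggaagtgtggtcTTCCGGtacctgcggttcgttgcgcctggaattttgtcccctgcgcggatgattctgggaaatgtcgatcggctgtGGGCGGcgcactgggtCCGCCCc
ZNF575 (chr19:43532938-43533187, plus strand): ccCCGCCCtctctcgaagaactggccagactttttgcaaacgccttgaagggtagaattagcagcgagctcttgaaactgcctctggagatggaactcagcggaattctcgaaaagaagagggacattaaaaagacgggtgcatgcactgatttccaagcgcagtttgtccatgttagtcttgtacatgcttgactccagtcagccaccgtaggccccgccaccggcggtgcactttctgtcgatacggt
The first 3 genes lie in the same group of neighbours and have related promoters. ZNF492 and ZNF91 were identical at 89.2% of the bases that a global alignment paired, ZNF257 and ZNF91 at 85.5%, and ZNF492 and ZNF257 at 84.2%. Each has a CCAAT and, near the start, a TTCCGG. In the printed bases ZNF564 has 2 CCAAT boxes and no TTCCGG, although its whole start window, which runs on past the start, holds the string, and its identity was 79.0% with ZNF257, 74.6% with ZNF91 and 73.5% with ZNF492. In these bases the strings do not separate the high from the low members: ZNF181 also holds a TTCCGG, and GGGCGG is in all 3 low members, in ZNF492 and in ZNF91, but not in ZNF257. ZNF181 and ZNF575 had 67.3% to 72.0% identity with the first 3, and ZNF181 and ZNF575 had 70.3% with each other.

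Fold changes at the members were higher than at other genes, by small amounts that rarely passed the authors' threshold for a single region. Of the 69 tested member regions, 1 (1.45%) had an adjusted p under 0.05 in the authors' deposited table (DESeq2, Benjamini-Hochberg), against 1.02% of all tested regions, so the share called was near the background. At an unadjusted p under 0.05, 33 of the 69 were higher (47.8%) and 0 were lower, where the background over all tested regions was 14.8% higher and 0.107% lower. Higher values with an adjusted p under 0.1 were found in 6 of the 69 (8.70%), against 2.96% of all tested regions. The median log2 fold change of the 69 was 0.44, or 35.3% higher, against 0.21 in 194 other tested regions of chromosome 19, or 15.8%. Of the 69, 68 lay above 0, as did 174 of the 194 others and 9585 of all 11184 tested nuclear regions. Over all 320 member regions the median was 0.36 with 283 above 0 (88.4%), and over the 1834 other chromosome 19 regions it was 0.21 with 75.2% above 0. That difference of 0.16 was 0.095 without the members' group of neighbours from ZNF101 to ZNF254, described below. Only member regions were left out there, and the other set kept the 53 regions inside that group's span (median 0.60). The tested regions touch 67 of the 246 members, so the counts of tested regions say nothing of the remaining members. Differences between sets of regions are descriptions and were not tested, since regions share the same 4 libraries.

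The difference was widest at starts, where most genes had low values. In the authors' deposited table the 62 tested start regions of members had a median of 0.43 on the log2 scale, a fold change of 34.8% upward, with quartiles of 0.30 and 0.51. The 151 other tested start regions of chromosome 19 had 0.19 (14.2%), and the 6564 tested start regions of all genes other than members had 0.16 (11.4%). At an unadjusted p under 0.05, 28 of the 62 member starts were higher (45.2%), against 8.61% of the other chromosome 19 starts and 8.58% of all other starts. After the tested median of 0.19 was subtracted from each fold change, 7 of the 62 were still higher at an unadjusted p under 0.05 (11.3%), against 0.670% of all other starts. Over all tested regions the same subtraction left 3.16% higher and 1.01% lower, and 0 of the 69 member regions were lower. Away from starts the 85 member regions had a median of 0.49 and the 1163 other chromosome 19 regions 0.31, at median mean signals of 12.5 and 12.1 normalized reads. The few tested regions among them were closer, with 0.45 over 7 of members and 0.37 over 43 others. Across the whole table, regions away from starts had 0.25.

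**Figure D1:**
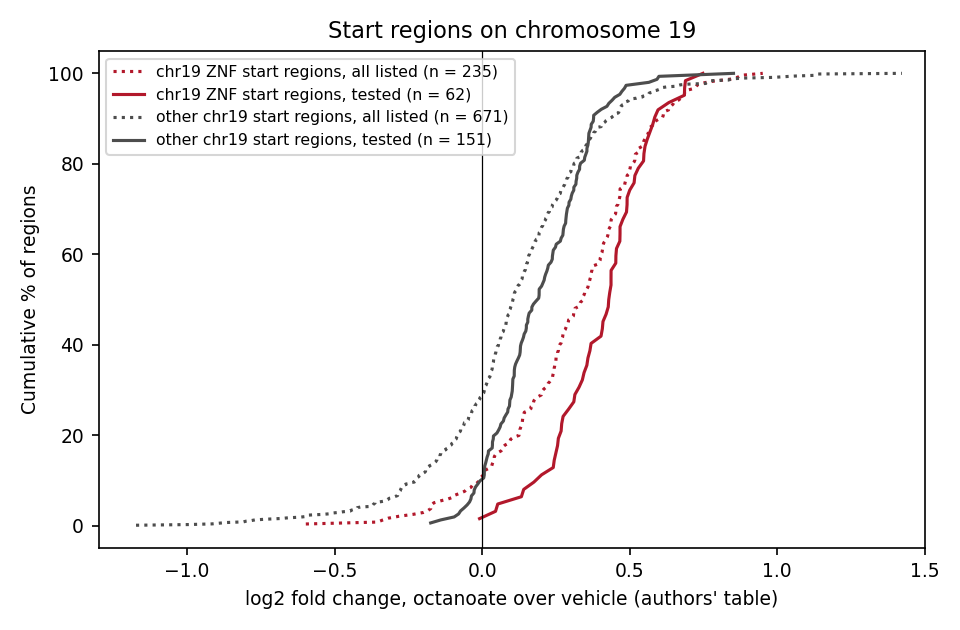
Cumulative share of start regions on chromosome 19 (y axis, percent of regions) by log2 fold change of octanoate over vehicle (x axis). Red lines are ZNF members and grey lines other genes, solid for tested and dotted for all listed regions. The red curves lie to the right: the tested medians are 0.43 for 62 member regions and 0.19 for 151 others.

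Members' starts also had higher medians than other starts at lower signal. Among start regions with a mean between 20 and the tested limit of 63.8, the median fold change (log2) was 0.28 for the 150 of members and 0.077 for the 330 others of chromosome 19. Below a mean of 20, the 26 of members had 0.23 and the 190 others 0.081. Members' starts had a median mean signal of 44.8, against 35.1 for other starts of the chromosome.

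**Figure D2:**
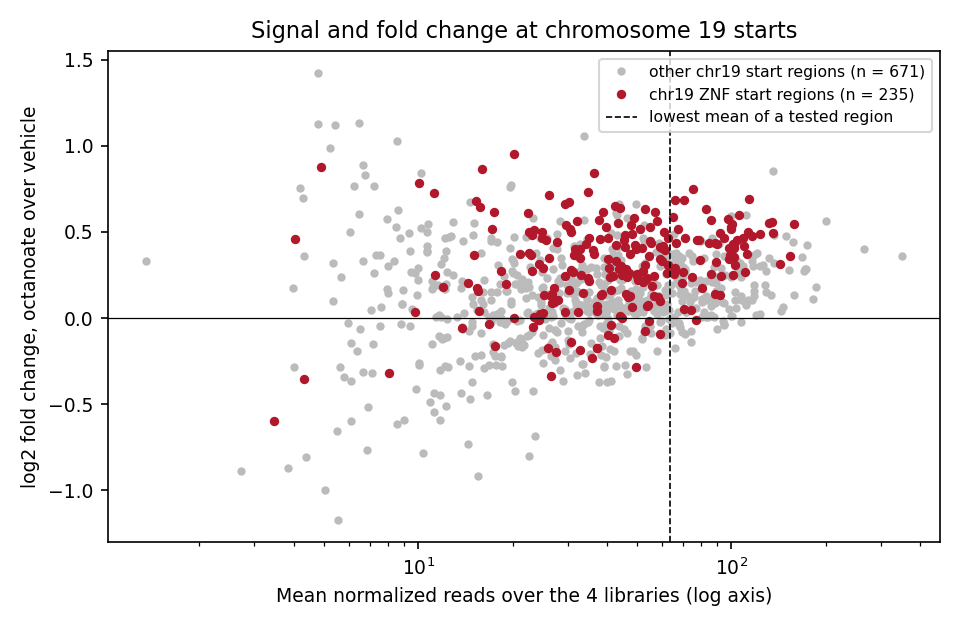
Mean normalized reads over the 4 libraries (x axis, log scale) against the log2 fold change of octanoate over vehicle (y axis) for start regions of chromosome 19. Red points are the 235 regions of ZNF members, grey points the 671 of other genes, and the dashed line is the lowest mean of a tested region, 63.8. Red points lie mostly above 0 on both sides of the line.

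Base composition of the starts differed between members and other genes of this GC-rich chromosome. The 268 start windows of members had a median GC content of 60%, the 1280 windows of other chromosome 19 genes 64.3% and all 22198 protein-coding windows 62.3%. In bands of equal GC content from 50% upward the members had the higher medians. These bands were compared after the data were seen, and the part of base composition in the difference was not tested. In start windows of 50 to 60% GC, the median log2 fold change was 0.38 for 100 member regions, 0.13 for 86 others of the chromosome and 0.13 for 2360 regions of all genes but the members. At 60 to 70% GC the same medians were 0.28, 0.13 and 0.13, over 99, 266 and 4542 regions. Under 50% GC only 5 member regions were listed, with a median of 0.16, below the 0.22 of 7 others on the chromosome.

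**Figure D3:**
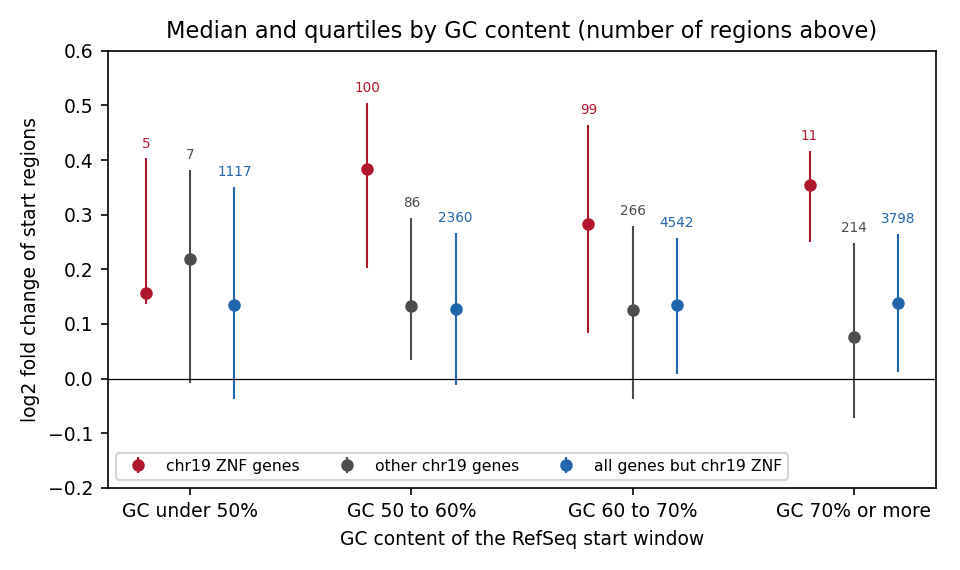
Log2 fold change of start regions (y axis) by GC content of the RefSeq start window (x axis) for chromosome 19 ZNF genes (red), other chromosome 19 genes (grey) and all genes but the members (blue). Points are medians, lines run from the lower to the upper quartile, and the numbers give the regions in each. Members lie above both other sets in each band from 50% GC upward, with 0.38 against 0.13 and 0.13 at 50 to 60%.

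Several letter strings also differed in how often they occurred in the start windows. CCGGAA was found in 51.1% of the members' windows, in 21.6% of other chromosome 19 windows, in 38.2% of windows of ZNF genes on other chromosomes and in 21.2% of all protein-coding windows. CCAAT was in 50.0% of members' windows, 35.6% of other chromosome 19 windows and 34.7% of all. For TATAAA the same shares were 2.61%, 7.11% and 9.47%. For GGGCGG they were 64.9%, 65.9% and 56.3%, so members were close to other genes of the chromosome. The remaining strings were rarer, with the NRF1 string in 11.2% of members' windows, TGACGTCA in 3.73%, the ZNF143 string in 1.12% and the YY1 string in 0.746%. In all protein-coding windows these shares were 7.38%, 2.26%, 0.306% and 1.18%. In other chromosome 19 windows they were 10.0%, 2.97%, 0.391% and 2.11%. Windows of ZNF genes on other chromosomes had 12.5%, 3.125%, 1.74% and 1.04%. The members' share of the NRF1 string was thus near that of both sets. Member start regions with CCGGAA had a median of 0.36 on the log2 scale (126 regions), and those without it 0.27 (89 regions). In all other genes the string went with no such gap, at 0.13 with it (3383 regions) and 0.14 without it (8434 regions). For CCAAT the members' medians were 0.37 with and 0.28 without it, and those of all other genes 0.14 and 0.13.

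Along the chromosome the members fell into 10 groups of at least 5 genes, with a gap of over 500 kb between groups, and the groups differed in level. These groups held 232 members and 14 stood outside them. The ZNF101 to ZNF254 group (chromosome 19, 19668153 to 24129968), known for young, recently duplicated genes, had 37 members and 49 regions. All 49 had log2 fold changes above 0 in the authors' deposited table, and their median was 0.49. It held 34 of the 69 tested regions, 20 of the 33 higher at an unadjusted p under 0.05, and all 6 with an adjusted p under 0.1. Its starts also had the strongest signal, with a median mean of 98.0 normalized reads against 26.7 to 62.9 in the other groups. The part of signal in the result was not tested.

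High medians were also found in 4 groups on the long arm. The ZNF628 to ZNF835 group (16 members, 55476617 to 56671757) had 0.50 over 20 regions. Its 15 starts had 0.42, below the 0.47 of the starts of the ZNF101 to ZNF254 group, and its 7 tested regions had 0.36. A median of 0.46 came from 53 regions of the ZNF175 to ZNF331 group (39 members, 51571283 to 53580269). The ZNF264 to ZNF446 group (43 members, 57191500 to 58489533) had 0.41 over 48 regions, 47 of them above 0. In the ZNF565 to ZNF573 group (26 members, 36182060 to 37779586) the median was 0.40 over 27 regions. The small ZNF302 to ZNF792 group (5 members, 34675979 to 34964229) lay lower at 0.25 over 5 regions.

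The other 4 groups had medians below the 0.23 of all nuclear regions, most of which lie away from starts. Most member regions are starts, and all starts outside the members had a median of 0.13. The start medians were 0.19 for ZNF414 to ZNF846, 0.070 for ZNF653 to ZNF791 and 0.037 for ZNF575 to ZNF180. The ZNF575 to ZNF180 group (23 members, 43530835 to 44500522) had a median of 0.037 over 27 regions, 16 of them above 0. The ZNF653 to ZNF791 group (25 members, 11483429 to 12633834) had 0.15 over 26 regions. Towards the short-arm end, the ZNF414 to ZNF846 group (13 members, 8509678 to 9786160) had 0.19 over 14 regions and the ZNF554 to ZNF77 group (5 members, 2819868 to 2944971) 0.17 over 6. The 5 starts of the ZNF554 to ZNF77 group had a median of -0.16, with 2 above 0. Its remaining region, inside ZNF556, was very weak (mean 0.979, SE 3.14). Pooled after their values were seen, these 4 groups held 73 regions with a median SE of 0.38. Only 6 were tested, of which 0 were higher at an unadjusted p under 0.05, too few to set against the 14.8% of all tested regions.

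Shares of CCGGAA and CCAAT in start windows are set beside group medians over all member regions, and a link was not tested. CCGGAA shares ran from 16.7% to 46.2% in the 4 low groups and from 35.3% to 80.0% in the others, so the ranges overlapped. At starts alone the highest median was 0.47 in the ZNF101 to ZNF254 group and the lowest -0.16 in the ZNF554 to ZNF77 group. From the highest to the lowest group median, CCGGAA was in 35.3% (ZNF628 to ZNF835), 80.0% (ZNF101 to ZNF254), 62.2% (ZNF175 to ZNF331), 74.4% (ZNF264 to ZNF446), 37.8% (ZNF565 to ZNF573) and 75% (ZNF302 to ZNF792) of start windows. It was in 46.2% (ZNF414 to ZNF846), 16.7% (ZNF554 to ZNF77), 23.1% (ZNF653 to ZNF791) and 34.8% (ZNF575 to ZNF180) in the 4 low groups. CCAAT was in 96.7% of windows of the ZNF101 to ZNF254 group and in 88.5% of the low ZNF653 to ZNF791 group. The smallest sets were those of ZNF302 to ZNF792, with 4 windows, and ZNF554 to ZNF77, with 6.

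Few single regions stood apart from the other members beyond their error. Of the 320 member regions, 3 had a 95% interval (from the deposited SE) that left out the members' median of 0.36, and 0 of these lay in the 4 low groups. Among the 69 tested regions, 1 interval left out their median of 0.44.

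Other regions inside the group spans also had higher values than regions outside them. For the 169 regions that lie within a group's span but belong to no member, the median was 0.42 on the log2 scale, against 0.36 for the members. The 1665 other chromosome 19 regions outside the spans had 0.19. These sets differ in makeup, since 235 of the 320 member regions and 31 of the 169 others in the spans are starts. At starts the members were higher, with a median of 0.34 against 0.23 for other genes inside the spans and 0.10 for 640 starts outside. In tested starts the same medians were 0.43 (62 regions), 0.35 (7) and 0.17 (144). By group, the regions of no member had medians of 0.60 (53 regions, ZNF101 to ZNF254), 0.47 (19, ZNF175 to ZNF331), 0.42 (26, ZNF628 to ZNF835), 0.41 (9, ZNF565 to ZNF573) and 0.32 (17, ZNF264 to ZNF446). They had 0.17 (19, ZNF414 to ZNF846) and 0.16 (11, ZNF653 to ZNF791) in 2 of the low groups. The ZNF575 to ZNF180 group was the exception, with 0.28 over 14 such regions against 0.037 at its members.

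**Figure D4:**
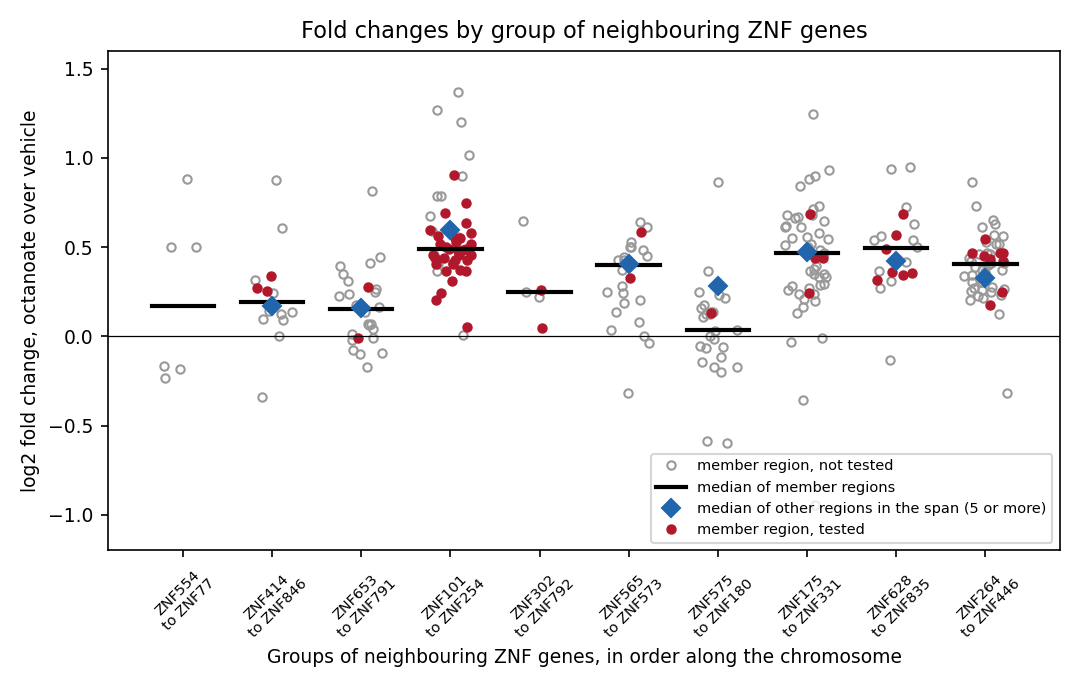
Log2 fold change of octanoate over vehicle (y axis) for the regions of each group of neighbouring ZNF genes, in order along the chromosome (x axis). Red points are tested and open grey points untested member regions, black bars are member medians, and blue diamonds are medians of other regions in the same span where there are at least 5; 1 weak region at 3.20 lies outside the axis. The ZNF101 to ZNF254 group, with a median of 0.49, and the ZNF575 to ZNF180 group, with 0.037, mark the range among groups of over 20 members.

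The member region past the threshold lay inside ZNF254, the last gene of its group before the centromere. From chromosome 19 position 24054031 to 24055046 accessibility rose, with a log2 value of 0.90 (SE 0.22, adjusted p 0.00971, DESeq2) in the authors' deposited table. With a mean of 95.8, this corresponds to about 66.8 normalized reads in vehicle and 125 in octanoate libraries. ZNF254 had 3 further regions, all above 0. A region at the upstream edge of its span (24033115 to 24034415, mean 134) had 0.44, and that at the RefSeq start window (24086719 to 24087702, mean 116) had 0.48, with adjusted p of 0.218 for the former. A weak region between them (mean 5.86) had 0.56 with an SE of 0.90. The call was lost when the tested median was subtracted from the fold changes (adjusted p 0.330) and when the adjustment covered all nuclear regions.

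The highest tested starts came from the same group and from the long-arm groups. In the authors' deposited table the start region of ZNF492 (22633924 to 22634934) had a log2 value of 0.75 (SE 0.25, adjusted p 0.0932), or about 56.2 normalized reads in vehicle and 94.4 in octanoate. The ZNF257 start (22051695 to 22053347) came closest to the threshold, at 0.69 with an adjusted p of 0.0508. ZNF845 and ZNF582, in the long-arm groups, both had 0.69, with adjusted p of 0.157 and 0.136, and ZNF506 had 0.63 (adjusted p 0.154). ZNF430, named after its values were seen, was the remaining start with an adjusted p under 0.1 (0.55, adjusted p 0.0951), beside ZNF724 and ZNF91 below. In all, 0 of the 62 start regions passed the threshold, against 21 of the 6564 other tested starts and 1.02% of all tested regions, so a count of 0 is near the background. The lowest tested starts were those of ZNF564 (-0.0089, SE 0.24), ZNF181 (0.045), ZNF101 (0.053), ZNF575 (0.13) and ZNF574 (0.14), with adjusted p between 0.801 and 0.991. ZNF101 lies at the edge of the ZNF101 to ZNF254 group, whose other tested starts were higher.

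At their strongest start regions, members of known role had values from 0.56 down to -0.20. ZNF91, which silences SVA transposable elements, had one of the stronger start regions (23394493 to 23396031, mean 135), with a log2 fold change of 0.56 (SE 0.18, adjusted p 0.0846) and about 109 normalized reads in vehicle and 161 in octanoate. ZNF93, known for silencing LINE elements, had 0.49 (adjusted p 0.165), and ZNF43, of the same group, 0.45 (adjusted p 0.288). ZNF274, which binds the 3′ ends of zinc finger genes and recruits SETDB1 there, had 0.47 at its start (adjusted p 0.362). The imprinted gene ZNF331 had 5 regions, all above 0 and with a median of 0.71. Only 1 of these regions was tested, and their means ran from 6.33 to 66.6. The strongest of them, at a start (53520437 to 53521437, mean 66.6), had 0.44 with an adjusted p of 0.414.

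Start regions under the tested limit were less precise. ZNF568 had 0.45 (SE 0.31), ZNF420 0.45 (SE 0.29) and ZNF808, a gene needed for human pancreas development, 0.40 (SE 0.27). ZNF417 and ZNF587, a pair known for silencing HERV-K elements, had 0.26 (SE 0.30) and 0.22 (SE 0.29), and ZNF649 had 0.27 (SE 0.44). In the ZNF575 to ZNF180 group, ZNF224 had -0.013 (SE 0.42), ZNF180 -0.17 (SE 0.34) and ZNF45 -0.20 (SE 0.40). Each of these intervals includes 0. ZNF534 had no region at its own start; its 1 listed region, within the 2 kb extension, is the start region of its neighbour ZNF578, with a mean of 4.33 and a value of -0.35 (SE 1.07).

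**Figure D5:**
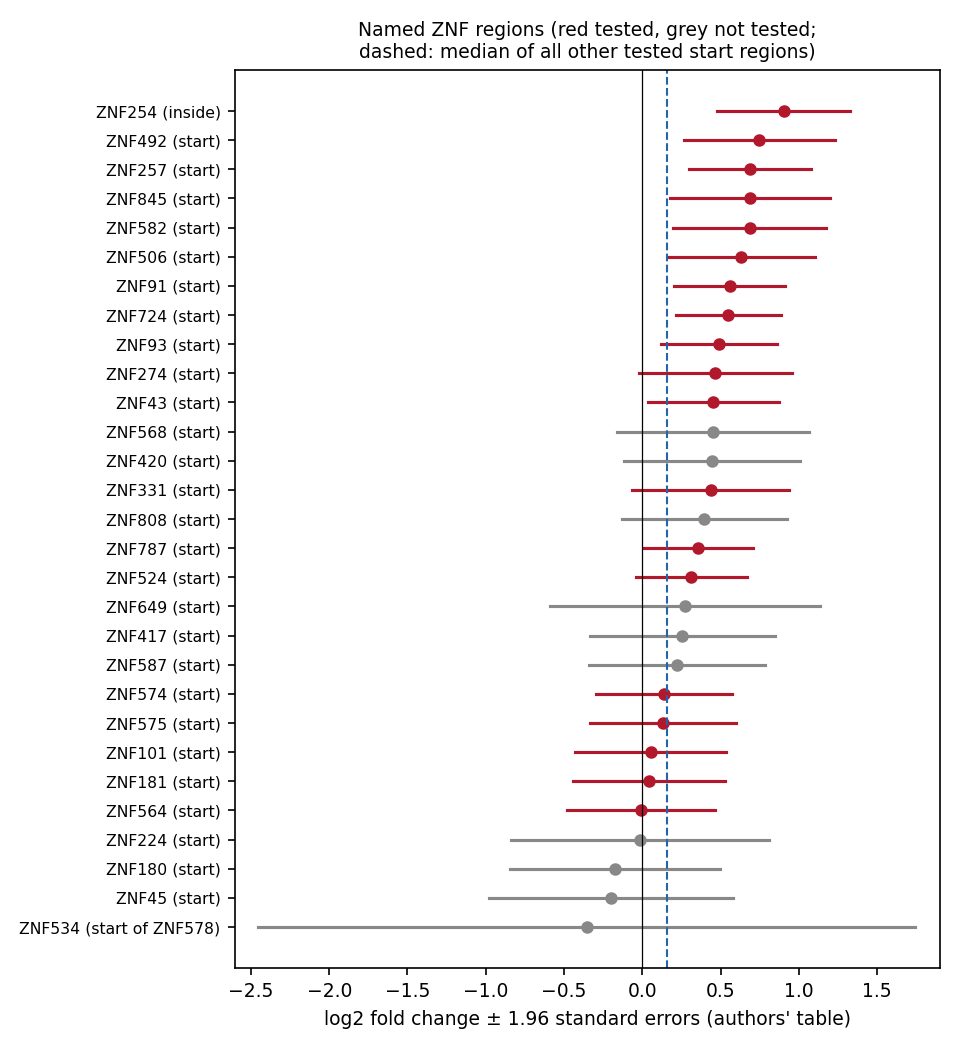
Log2 fold change of octanoate over vehicle (x axis) with its 95% interval from the standard error for named member regions (y axis), ordered by value, red where tested and grey where not. The dashed line is the median of all other tested start regions, 0.16. ZNF254 at 0.90 is highest, and the untested regions below 0 are the starts of ZNF224, ZNF180 and ZNF45 and the ZNF578 start that lies beside ZNF534.

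The strongest starts and the members with the most regions did not all share the high values. ZNF724 had the strongest start region of all members (23249269 to 23250757, mean 158), at 0.55 on the log2 scale (adjusted p 0.0728, authors' deposited table). ZNF787 (mean 153) had 0.36 and ZNF524 (mean 142) 0.31, with adjusted p of 0.314 and 0.403. ZNF536, a neuronal regulator without a KRAB domain, spans 488 kb and held 27 regions, the most of any member. Their median was 0.29 with 21 above 0, the strongest (30391761 to 30393436, mean 82.4) had 0.054, and the stronger of those at its start (mean 66.1) 0.29. Among tested regions away from start windows, ZNF507 had 0.69 (adjusted p 0.171), ZNF43 0.49, ZNF584 0.45 and ZNF730 0.36. Of the 7 tested regions away from start windows, 4 lie at the upstream edge of a member's span, where further starts may lie.

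ZNF genes on other chromosomes had values between those of the members and of other starts. For these 263 genes the median was 0.22 on the log2 scale over 125 tested start regions. Of these, 21 (16.8%) were higher at an unadjusted p under 0.05 (DESeq2, deposited values). The share was 14.8% over all tested regions and 8.58% over all tested starts outside the members. The 19 other zinc finger genes of chromosome 19 (symbols such as ZFP, ZSCAN, ZIM and PEG3) had 0.32 over 27 regions that belong to no member, with 0.43 over 6 tested ones. The 1 called region of chromosome 19 outside the members was among them. It lay at the start shared by ZIM2 and PEG3, an imprinted zinc finger gene (56837161 to 56840174, mean 136), and its log2 value in the authors' deposited table was 0.85 (SE 0.18, adjusted p 0.00192). Its adjusted p after subtraction of the tested median was 0.189.

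Genes of the repression pathway that KRAB zinc finger proteins use had a lower median than the members. The list held 24 genes, among them the corepressor TRIM28, the methyltransferase SETDB1 with its partner ATF7IP, the heterochromatin proteins CBX1, CBX3 and CBX5, and the silencing factors MPHOSPH8, TASOR and PPHLN1. Of its 59 regions 13 were tested, 0 passed an adjusted p of 0.05 and 0 an unadjusted p of 0.05 (DESeq2, deposited values). The 13, all starts, are too few to read against the background of 1.02% and 14.8% over all tested regions or the 8.58% of other tested starts at an unadjusted p under 0.05. Their median log2 fold change was 0.085, against 0.16 for all other tested starts, and they include the member ZNF274. TRIM28, itself on chromosome 19, had 0.24 (SE 0.21, adjusted p 0.623) at its start, and SETDB1, under the tested limit, 0.20 (SE 0.31). The highest of the tested starts after ZNF274 was MPHOSPH8 with 0.41 (adjusted p 0.373), and the lowest SMARCAD1 with -0.17 (adjusted p 0.781).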

How the data were processed

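Accessibility was measured by ATAC-seq in 4 libraries, 2 per group, grouped by sample title. Per the submitters' processing notes, the tools were Trim Galore, cutadapt, FastQC, Bowtie2, Picard, MACS2, featureCounts, DESeq2 and bedtools 2.29.1 with build hg38; their settings and any shift for the transposase cut are not given in the sources used here. Per the file headers, the authors' deposited table holds the mean normalized read count (signal), the log2 fold change of octanoate over vehicle with its standard error, the Wald score, and its p-value and adjusted p-value. The deposited adjusted p equalled Benjamini-Hochberg adjustment over 11185 regions and was listed as 1 for 114801 others, which were treated as not tested.

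Regions, counted from 1, were assigned by overlap with RefSeq GRCh38.p14 spans extended by 2000 bp. Start regions lay within 1000 bp of a start in the RefSeq windows. Levels per group were derived from the deposited mean and fold change. Centring subtracted the tested median and recomputed p from the deposited standard errors; it was tested on simulated data. Promoters were aligned globally. Named genes were the called member, the 5 highest and 5 lowest tested regions at starts and away from them, the 3 members with the most regions (ZNF254, ZNF507 and ZNF69 tied at 4 for the last place, given by symbol order to ZNF254), the 3 strongest starts, and members of known role. Members and lists were chosen with earlier results of these data known. Protein sequences were not used here, so the planned protein features were left out. Python 3.11.15, pandas 2.3.3, numpy 2.4.6, scipy 1.17.1 and matplotlib 3.10.9 were used.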

Additional observations from a re-analysis of the deposited data

How the results depend on the processing

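The count of 1 member region past the threshold was 6 at an adjusted p of 0.1 and 0 when the adjustment covered all nuclear regions or fold changes were centred on the tested median or on the median of all regions (0.05 throughout). It was 1 at 0.01.

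The members' median log2 fold change of 0.36 became 0.44 in tested regions and 0.13 with the median of all regions (0.23) subtracted, and 0.30 without the ZNF101 to ZNF254 group. With 0 or 5 kb of extension, the strongest region per gene, stronger regions, or regions touching no other gene, it ran from 0.35 to 0.37.

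The difference from other chromosome 19 regions, 0.16, was 0.24 at starts (0.23 with windowed members alone, 0.24 with upstream edges of spans as starts), 0.22 in tested regions, 0.24 in tested starts, 0.21 against regions at protein-coding genes and 0.25 in windows of 50 to 60% GC. It fell to 0.095 without the member regions of the ZNF101 to ZNF254 group, with the other regions of its span kept in the comparison. It reversed to -0.055 against all other regions inside the group spans, of which most lie away from starts; between starts there it was 0.11, and between tested starts 0.076. The alternatives on the group, spans, GC, tested starts, windowed members and upstream edges were chosen after the data were seen.

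Low named regions changed sign on centring, since the subtracted median exceeded them: on the tested median ZNF181 was -0.14, ZNF101 -0.13, ZNF575 -0.054, ZNF574 -0.046 and ZNF536 -0.13, and on the median of all regions -0.18, -0.18, -0.0965, -0.089 and -0.18. The ZNF254 call was lost under both, at 0.72 and 0.67 (adjusted p 0.330 and 0.596).

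No paired analysis was possible because no column holds a single library; hence leaving out a replicate, other scalings and count tests were not run.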

Other observations

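ZNF460, in the ZNF264 to ZNF446 group, had 3 neighbouring regions that were each higher at an unadjusted p under 0.05, with no adjustment for the choice of this gene, which was made after its values were seen. Its log2 fold changes in the authors' deposited table were 0.73 (SE 0.36) and 0.42 (SE 0.20) at its starts and 0.86 (SE 0.43) inside the gene, at means of 34.9, 110 and 26.6 normalized reads. The regions with means of 34.9 and 26.6 were outside the tested set, and 14.8% of all tested regions were higher at that threshold. With the tested median of 0.19 subtracted, the unadjusted p-values were 0.134, 0.253 and 0.116, so 0 of the 3 regions of ZNF460 stayed under 0.05. ZNF714 had 0.20 at its start (mean 69.6) and 1.20 and 0.90 in 2 regions inside the gene with means of 8.95 and 4.83, whose SEs were 0.73 and 1.06. The most extreme member value, 3.20 inside ZNF793, belonged to a region with a mean of 1.17 and an SE of 3.14.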
